A study of Mus musculus with 9 samples.

Results

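The genes described here are 8 voltage-gated potassium channel genes: Kcnc1, Kcnc2 and Kcnc4 of the Kv3 family, Kcna1, Kcna2, Kcna4 and Kcna6 of the Kv1 family, and Kcns3, which encodes Kv9.3. They were taken by name from 37620 gene identifiers, and 8 of 8 were among the 15069 genes that were tested. Their mRNA was measured in parvalbumin interneurons (PV INs) of hippocampal CA3/CA2 in a study that lowered Ablim3 in the dentate gyrus (DG) to increase mossy fiber input onto these cells. Mice that were 2 months old and carried PV-Cre with Rpl22HA f/f received lentivirus in DG, expressing either a non-targeting hairpin (shNT, 5 samples) or a hairpin against Ablim3 (shRNA, 4 samples). Both groups therefore share the Cre driver, the tagged ribosomal protein, the injection and the 2 weeks between injection and harvest of CA2/CA3. Each sample is a pool of tissue from 6 mice of both sexes, so the spread between samples is a spread between pools and not between mice. RNA bound to HA-tagged ribosomes was pulled down with an antibody to the tag, and the tag is made wherever the parvalbumin driver has switched on Cre. The level of a gene is its its CPM, the count scaled to library size, with samples brought to a common scale by the TMM method. In such bulk samples fewer cells of a type and less RNA per cell cannot be told apart.

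Voltage-gated potassium channels open on depolarization and let potassium leave the cell, which ends the action potential. Kv3 channels open only at depolarized voltages and close very fast, and this lets PV INs fire brief spikes at high rates. Kv1 channels open near threshold, sit mainly in axons and at the axon initial segment, and restrain excitability and transmitter release. In each family most subunits give sustained currents, whereas Kv3.4, from Kcnc4, and Kv1.4, from Kcna4, carry an N-terminal segment that plugs the open pore and gives a rapidly inactivating current. Kv9.3 is an electrically silent subunit that forms no channel alone and modifies Kv2 channels, and Kcns3 is known as a marker of PV INs in cortex.

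Members of one family are alike in sequence, so whether reads of 50 bases can be told apart matters for every value given here. The stretch shown codes for the selectivity filter, the part of the pore that passes potassium and the best conserved part of the channel. It is given for an abundant subunit and the inactivating subunit of each family, in mm9 coordinates and on the coding strand, from the GENCODE annotation of that build. Capitals mark the 18 bases of the filter codons and small letters the 18 bases on either side.
Kcnc1 (chr7:53683325-53683378, plus strand): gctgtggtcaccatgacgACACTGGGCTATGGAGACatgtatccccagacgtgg
Kcnc4 (chr3:107250696-107250749, minus strand): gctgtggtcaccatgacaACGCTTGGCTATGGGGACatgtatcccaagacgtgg
Kcna1 (chr6:126592225-126592278, minus strand): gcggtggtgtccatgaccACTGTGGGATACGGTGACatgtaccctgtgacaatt
Kcna4 (chr2:107136634-107136687, plus strand): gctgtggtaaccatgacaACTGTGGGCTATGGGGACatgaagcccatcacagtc
Over these 54 bases Kcnc4 had the same base as Kcnc1 at 49 positions, Kcna4 at 40 and Kcna1 at 37. The stretch lies in coding exon 2 of 4 in Kcnc1 and Kcnc4 and in the single coding exon of Kcna1 and Kcna4. Among protein-coding transcripts, 6 of the 8 genes share no run of 50 bases with those of any other gene. Transcripts of noncoding genes and pseudogenes were not searched. Kcnc1 shares 51 of its 8996 such runs (0.567%) with 386 other genes, and Kcna6 shares 79 of 5778 (1.37%) with Kcna5. Exons of an antisense gene, Gm17456, cover 39.5% of the exon bases of Kcna6, and reads there cannot be assigned to either gene when counting ignores strand. The level of Kcna6 is therefore uncertain, and its value per kb of exon may be too low.

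Reads on genes numbered 19680352 to 34578837 per shNT sample and 18281719 to 30421093 per shRNA sample. Pvalb, the gene of parvalbumin, ranked 27 of 15047 genes per exon length in the shNT samples, and no marker gene of any cell type examined was at 0 in every sample. Ablim3, which the hairpin targets in DG and not in the cells sampled, averaged 16.9 ± 5.16 CPM (SD) over the 5 shNT samples and 18.5 ± 3.42 CPM (SD) over the 4 shRNA samples. Reads that fell outside annotated exons made up 9.76% to 11.3% of uniquely aligned reads in 4 shNT samples but 18.6% in shNT replicate 2. They made up 12.4% and 12.5% in shRNA replicates 3 and 2, 19.8% in shRNA replicate 1 and 27.2% in shRNA replicate 4. Results are also given without shNT replicate 2 and shRNA replicate 4, the samples with the largest share in each group. shRNA replicate 1 was kept, although its share was above that of shNT replicate 2. The shares of the samples kept were still 9.76% to 11.3% in shNT and 12.4% to 19.8% in shRNA.

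Levels were compared between genes as CPM per kb of exon. In the shNT samples Kcnc1 had 103 ± 19.0 CPM per kb (SD, n = 5) and Kcnc2, the gene of Kv3.2, 102 ± 24.4 CPM per kb (SD, n = 5), so both Kv3 genes of sustained current lay in the highest 4.41% of 15047 genes. Kcna1, which encodes Kv1.1, had 55.1 ± 8.88 CPM per kb (SD, n = 5) and Kcna2, which encodes Kv1.2, 41.1 ± 17.2 CPM per kb (SD, n = 5). Kcns3 followed with 25.8 ± 3.74 CPM per kb (SD, n = 5) and Kcna6, the gene of Kv1.6, with 9.14 ± 1.52 CPM per kb (SD, n = 5). The inactivating subunits came last, with 2.16 ± 0.735 CPM per kb (SD, n = 5) for Kcnc4 and 1.65 ± 0.626 CPM per kb (SD, n = 5) for Kcna4.

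Neighbors in this order were compared within each of the 9 samples by an exact two-sided sign-flip permutation test, adjusted over 7 pairs, for which the smallest unadjusted p is 0.00391. The order came from the shNT means of these same samples. The p-values therefore describe how steady the differences were over samples and are no separate test of the order. Kcnc1 and Kcnc2 did not differ beyond their spread, with a mean log2 difference of -0.0024 ± 0.19 (SD, n = 9, adjusted p = 0.977, exact test), and Kcnc1 was the higher gene in 3 of 9 samples. Kcnc2 exceeded Kcna1 by 0.82 on the log2 scale in 9 of 9 samples (adjusted p = 0.00911, exact test). Kcna1 exceeded Kcna2 by 0.40 in 8 of 9 samples (adjusted p = 0.0164, exact test). Below that, as far as Kcnc4, the differences kept their direction in at least 8 of 9 samples. Kcna2 exceeded Kcns3 by 0.73 in 8 of 9 samples (adjusted p = 0.0137, exact test), Kcns3 exceeded Kcna6 by 1.36 in 9 of 9 samples and Kcna6 exceeded Kcnc4 by 1.67 in 9 of 9 samples (adjusted p = 0.00911 for both, exact test). The sizes of both differences with Kcna6 are uncertain, since its value per kb may be too low through the overlap with Gm17456. Kcnc4 and Kcna4 did not differ beyond their spread, at 0.21 ± 0.46 (SD, n = 9, adjusted p = 0.237, exact test). With the longest transcript as the length in place of all exons, Kcnc1 exceeded Kcnc2 by 0.23 (adjusted p = 0.0137, exact test), so the order of this pair rests on which length is used.

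**Figure D1:**
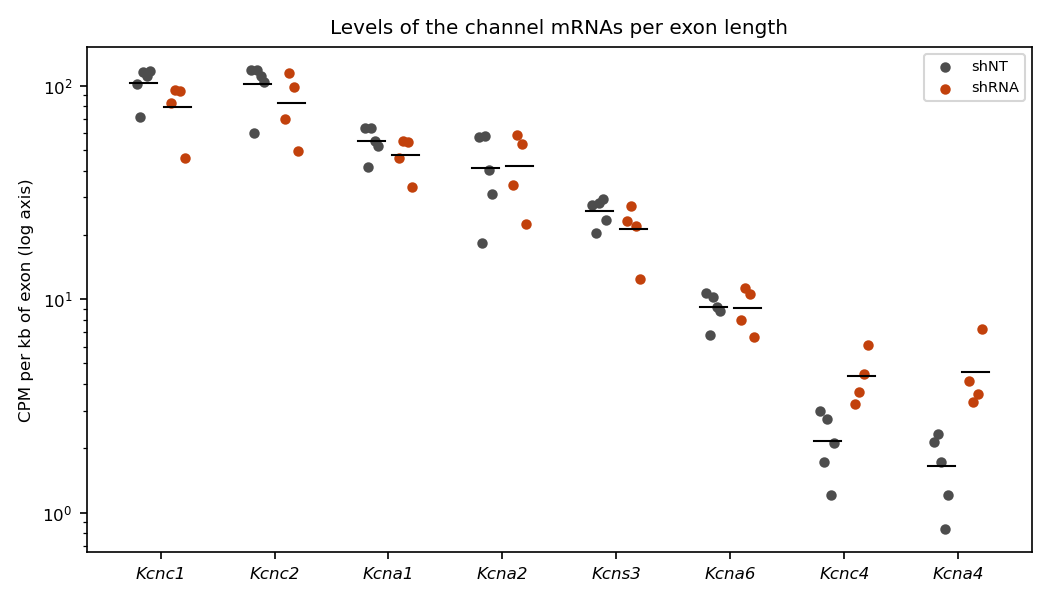
CPM per kb of exon on a log axis for the 8 channel genes in order of their shNT means, with a dot for each sample (gray shNT, n = 5; orange shRNA, n = 4) and a line at each group's mean. Kcnc1 and Kcnc2 sit near 100 CPM per kb and Kcnc4 and Kcna4 at 2.16 and 1.65 CPM per kb in the shNT samples, and the shRNA samples lie above every shNT sample for those last 2 genes.

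The comparison of shRNA with shNT asks which mRNAs of PV INs differ when Ablim3 is lowered in DG. Among the 8 genes, Kcna4 rose in the shRNA samples by 2.77-fold and was called, and no member was called lower. A gene counted as called when its FDR, the Benjamini-Hochberg adjusted p of the edgeR quasi-likelihood test over the whole table, was under 0.05 and its fold at least 1.5. By this rule 1.74% of all genes tested were called higher and 0.0133% lower, so 1 of 8 members is to be read against those shares. Kcnc4 was the other member whose groups did not overlap, at 2.02-fold, and it missed the FDR threshold. At an unadjusted p under 0.05 there were 2 members, both higher, against 20.7% of all genes higher and 13.4% lower (edgeR quasi-likelihood test). Groups did not overlap with shRNA higher in 8.97% of all genes tested and with shRNA lower in 6.68%, against 2 and 0 of the 8 members. The 6 members of sustained current or of no current of their own did not pass, with log2 fold changes between -0.38 and 0.04. The median log2 fold change was -0.11 over the members and 0.11 over all genes tested, and 5 of 8 members had a value below 0 against 42.1% of all genes.

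Kcnc1 encodes Kv3.1, the main Kv3 subunit of fast-spiking interneurons. shNT replicates 1 to 5 gave 931, 649, 1059, 1008 and 1069 CPM, and shRNA replicates 1 to 4 gave 753, 868, 861 and 420 CPM. Of the 4 shRNA samples, 3 lay within the range of the shNT samples, and shRNA replicate 4 was the lowest sample. The log2 fold change was -0.38 (standard error 0.24, 95% interval -0.91 to 0.15, edgeR quasi-likelihood FDR = 0.279). Without shRNA replicate 4 it was -0.20, and with shNT replicate 2 and shRNA replicate 4 both left out it was -0.29 (FDR = 0.210, edgeR quasi-likelihood test). A correction for exon length, given with the other settings, called it lower.

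Kcnc2 encodes Kv3.2, which assembles with Kv3.1 in hippocampal PV INs. shNT replicates 1 to 5 gave 731, 371, 734, 688 and 643 CPM, and shRNA replicates 1 to 4 gave 430, 708, 614 and 307 CPM. shNT replicate 2 stood well below the other shNT samples, and shRNA replicates 1 and 4 were low among the shRNA samples, so the groups overlapped. These 3 samples are those with the largest shares of reads outside exons. Its log2 fold change was -0.30 (standard error 0.27, 95% interval -0.90 to 0.30, edgeR quasi-likelihood FDR = 0.446), and it was -0.12 without shRNA replicate 4 and -0.25 without both samples that stand apart.

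Kcnc4, the gene of the inactivating Kv3.4, was far lower in level, with 72 to 254 reads per shNT sample and 256 to 407 per shRNA sample. shNT replicates 1 to 5 gave 9.03, 5.19, 8.30, 3.63 and 6.40 CPM, and shRNA replicates 1 to 4 gave 9.70, 11.1, 13.5 and 18.4 CPM. Every shRNA sample was above every shNT sample, with shRNA replicate 1 just above shNT replicate 1. The means were 6.51 ± 2.21 CPM (SD, n = 5) for shNT and 13.2 ± 3.795 CPM (SD, n = 4) for shRNA, which differ on the log2 scale by 1.01 (standard error 0.28, 95% interval 0.40 to 1.63, edgeR quasi-likelihood FDR = 0.0630). Other tests of the same counts put it past the threshold, with an FDR of 0.0157 by edgeR's likelihood ratio test, 0.0143 by DESeq2 and 0.00384 by limma voom with sample weights. It was also past the threshold without shNT replicate 1 (FDR = 0.0439), and without both samples that stand apart it was 0.74 (FDR = 0.132, edgeR quasi-likelihood test). Of all genes, the likelihood ratio test called 11.2% higher, DESeq2 10.2% and limma voom 15.3%. Without shNT replicate 1, 1007 of 15065 genes were called higher.

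For Kcns3, shNT replicates 1 to 5 gave 84.6, 62.5, 86.1, 89.8 and 71.8 CPM, and shRNA replicates 1 to 4 gave 71.0, 83.7, 67.1 and 38.1 CPM. shRNA replicate 4 was the lowest sample and the other shRNA samples lay within the shNT range. The log2 fold change was -0.28 (standard error 0.21, 95% interval -0.74 to 0.18, edgeR quasi-likelihood FDR = 0.351), and -0.15 without shNT replicate 2 and shRNA replicate 4.

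Kcna1 encodes Kv1.1, which limits firing near threshold and whose loss causes seizures in mice. shNT replicates 1 to 5 gave 568, 375, 565, 495 and 469 CPM, and shRNA replicates 1 to 4 gave 409, 496, 489 and 300.5 CPM. As for Kcnc1, shNT replicate 2 was the lowest shNT sample and shRNA replicate 4 lay below all others. Between the groups it differed by -0.22 on the log2 scale (standard error 0.20, 95% interval -0.65 to 0.21, edgeR quasi-likelihood FDR = 0.429). It was -0.16 without both samples that stand apart, and the exon length correction called it lower.

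Kcna2 encodes Kv1.2, the usual axonal partner of Kv1.1. shNT replicates 1 to 5 gave 199, 63.3, 201, 139 and 108 CPM, and shRNA replicates 1 to 4 gave 118, 204, 184 and 77.6 CPM. Relative to its mean it varied more within a group than any other abundant member, and the highest sample was in one group and the lowest in the other. On the log2 scale the difference was 0.04 (standard error 0.36, 95% interval -0.74 to 0.82, edgeR quasi-likelihood FDR = 0.949), so changes of up to about 0.8 in either direction remained within its error. Without both samples that stand apart it was 0.08.

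For Kcna6, the gene of Kv1.6, shNT replicates 1 to 5 gave 63.6, 40.3, 60.5, 54.6 and 52.3 CPM, and shRNA replicates 1 to 4 gave 47.3, 67.0, 63.0 and 39.6 CPM. The ranges of both groups nearly coincided, with means of 54.2 ± 9.02 CPM (SD, n = 5) and 54.2 ± 12.9 CPM (SD, n = 4). The log2 fold change had a 95% interval from -0.41 to 0.41 (FDR = 0.997, edgeR quasi-likelihood test).

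Kcna4 encodes Kv1.4, which gives an inactivating A-type current and is also known from axons of hippocampal excitatory neurons. It had 80 to 292 reads per shNT sample and 331 to 777 per shRNA sample. shNT replicates 1 to 5 gave 10.4, 11.2, 8.37, 4.04 and 5.87 CPM, and shRNA replicates 1 to 4 gave 19.97, 16.03, 17.5 and 35.0 CPM. Every shRNA sample was above every shNT sample, and shRNA replicate 4 was the highest by a wide margin. The means were 7.98 ± 3.03 CPM (SD, n = 5) for shNT and 22.1 ± 8.76 CPM (SD, n = 4) for shRNA, which differ on the log2 scale by 1.47 (standard error 0.32, 95% interval 0.77 to 2.17, edgeR quasi-likelihood FDR = 0.0466). This lay close to the threshold, as did the lowest FDR of any gene, 0.0403 (edgeR quasi-likelihood test). Without shRNA replicate 4 the log2 fold change was 1.13 (FDR = 0.0918), and 142 of 14515 genes were called higher. The call was also lost when shNT replicate 3, 4 or 5 was left out, or shRNA replicate 1 or 3 (FDR 0.0744 to 0.169, edgeR quasi-likelihood test). In each of these latter fits 0 genes of the whole table were called. With shNT replicate 2 and shRNA replicate 4 both left out it was 1.32 and called (FDR = 0.0282, edgeR quasi-likelihood test). That fit called 678 of 14270 genes higher, against 262 of 15069 with all samples.

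**Figure D2:**
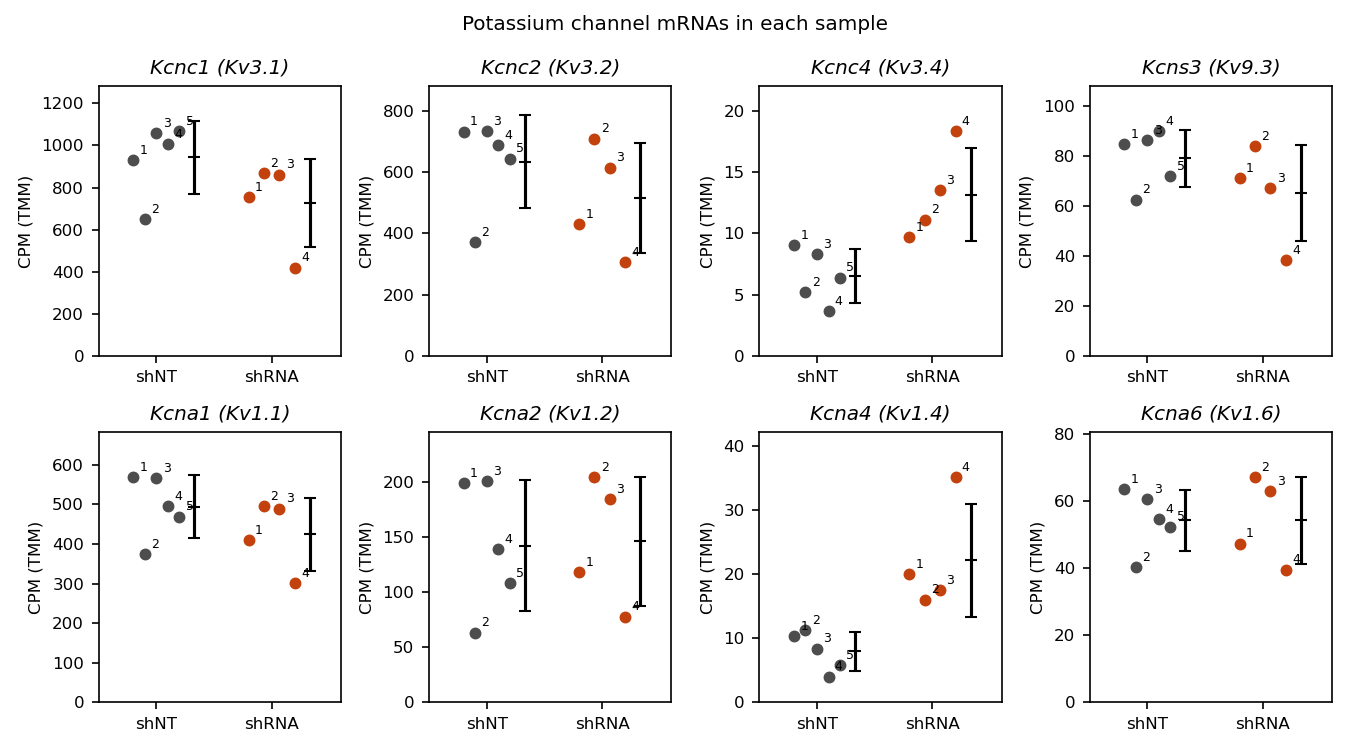
CPM (TMM scaled) of each channel gene in each sample, with a panel per gene, replicate numbers beside the dots, shNT in gray (n = 5), shRNA in orange (n = 4) and bars for mean ± SD. In Kcnc4 and Kcna4 the shRNA samples lie above all shNT samples, and in Kcnc1, Kcnc2, Kcns3, Kcna1 and Kcna6 shRNA replicate 4 is the lowest sample.

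By their names the samples form a set of 6 (shNT and shRNA replicates 1 to 3) and a set of 3 (shNT replicates 4 and 5 and shRNA replicate 4), and the sources used here do not say if these are batches. Within the set of 6, the difference was 0.80 on the log2 scale for Kcna4 (standard error 0.17, FDR = 0.240) and 0.57 for Kcnc4 (standard error 0.24, edgeR quasi-likelihood FDR = 0.480). In that fit 0 genes of the whole table were called (1493 at an unadjusted p under 0.05). The set of 3 holds 1 shRNA sample and gives no test of its own. With the set as a term in the fit over all samples, Kcna4 had 1.48 (FDR = 0.0482) and was called, and Kcnc4 had 1.01 (FDR = 0.0836, edgeR quasi-likelihood test). That fit called 376 of 15069 genes higher.

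**Figure D3:**
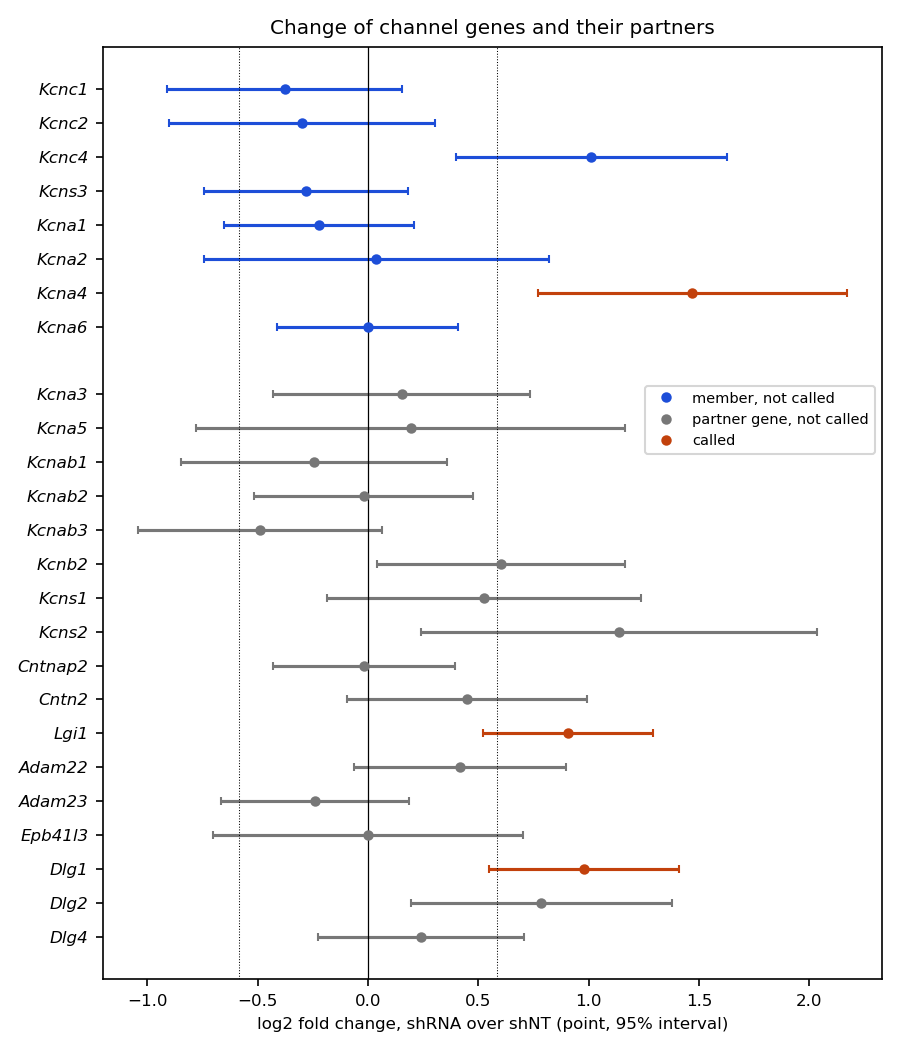
Log2 fold change (shRNA over shNT) with its 95% interval for the 8 channel genes and the 17 partner genes tested, with called genes in orange and dotted lines at a 1.5-fold change. Kcna4 at 1.47, Dlg1 at 0.98 and Lgi1 at 0.91 are called, and the intervals of 6 members cross 0.

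The balance within each family was compared within samples, where scaling cancels. Kcnc1 exceeded Kcnc2 in CPM by a ratio between 1.27 and 1.75 in the shNT samples and between 1.23 and 1.75 in the shRNA samples. The log2 ratio was 0.59 ± 0.18 (SD, n = 5) and 0.51 ± 0.22 (SD, n = 4), and it did not differ between groups beyond its spread (adjusted p = 0.532, exact two-sided permutation test, smallest unadjusted p 0.00794). The ratio of Kcna1 to Kcna2 lay between 2.81 and 5.92 in the shNT samples, highest in shNT replicate 2, and between 2.43 and 3.87 in the shRNA samples. Its log2 value was 1.90 ± 0.45 (SD, n = 5) and 1.61 ± 0.32 (SD, n = 4, adjusted p = 0.532 over 2 ratios, exact two-sided permutation test). Both differences, -0.08 and -0.29 on the log2 scale, were thus smaller than the spread between samples of one group.

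The inactivating subunits remained a small part of each family. Per kb of exon, Kcnc4 made up between 0.541% and 1.34% of the 3 Kv3 members in the shNT samples and between 1.73% and 6.00% in the shRNA samples. Kcna4 made up between 0.791% and 3.36% of the 4 Kv1 members in the shNT samples and between 2.57% and 10.4% in the shRNA samples, so these ranges overlapped. The largest shares, 6.00% and 10.4%, were both those of shRNA replicate 4. Kcnc1 and Kcnc2 held 50.1% and 48.9% of the Kv3 members on average in the shNT samples and 47.7% and 49.3% in the shRNA samples.

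For Pvalb itself, shNT replicates 1 to 5 gave 678, 1106, 743, 1089 and 1375 CPM, and shRNA replicates 1 to 4 gave 705, 552, 539 and 310 CPM. It differed by -0.92 on the log2 scale and did not pass (FDR = 0.0678, edgeR quasi-likelihood test), and the groups overlapped through shRNA replicate 1. Set against Pvalb within each sample, the log2 level of every member was higher in the shRNA samples on average. The differences ran from 0.52 for Kcnc1 and 0.60 for Kcnc2 to 1.98 for Kcnc4 and 2.43 for Kcna4, and the groups overlapped for 6 of the 8 members, Kcnc4 and Kcna4 being the others. Such a difference holds that of Pvalb as well as that of the channel gene, and no test was run on it.

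In each group the sample with the largest share of reads outside exons had the lowest levels of the abundant members. shNT replicate 2 was the lowest shNT sample in Kcnc1, Kcnc2, Kcns3, Kcna1, Kcna2 and Kcna6, and shRNA replicate 4 was the lowest shRNA sample in the same 6 genes. Kcnc4 and Kcna4 did not follow this pattern, since shRNA replicate 4 was their highest sample. Kcna4 was also highest among the shNT samples in replicate 2 (11.2 CPM), and shRNA replicate 1 was its next highest sample (19.97 CPM). For Kcnc4, shNT replicate 2 (5.19 CPM) was not the highest shNT sample, and shRNA replicate 1 (9.70 CPM) was the lowest shRNA sample. In a fit that took the percentage of reads outside exons as a covariate, the log2 fold changes of Kcnc1, Kcnc2, Kcns3 and Kcna1 were 0.00070, 0.17, 0.03 and 0.06. In that fit Kcna4 had 1.00 (FDR = 0.0959), Kcnc4 0.89 (FDR = 0.119) and Kcna2 0.66 (FDR = 0.115), and 0 genes of the whole table were called (edgeR quasi-likelihood test, 4479 genes at an unadjusted p under 0.05). The part of these reads in the results was not tested beyond this fit.

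**Figure D4:**
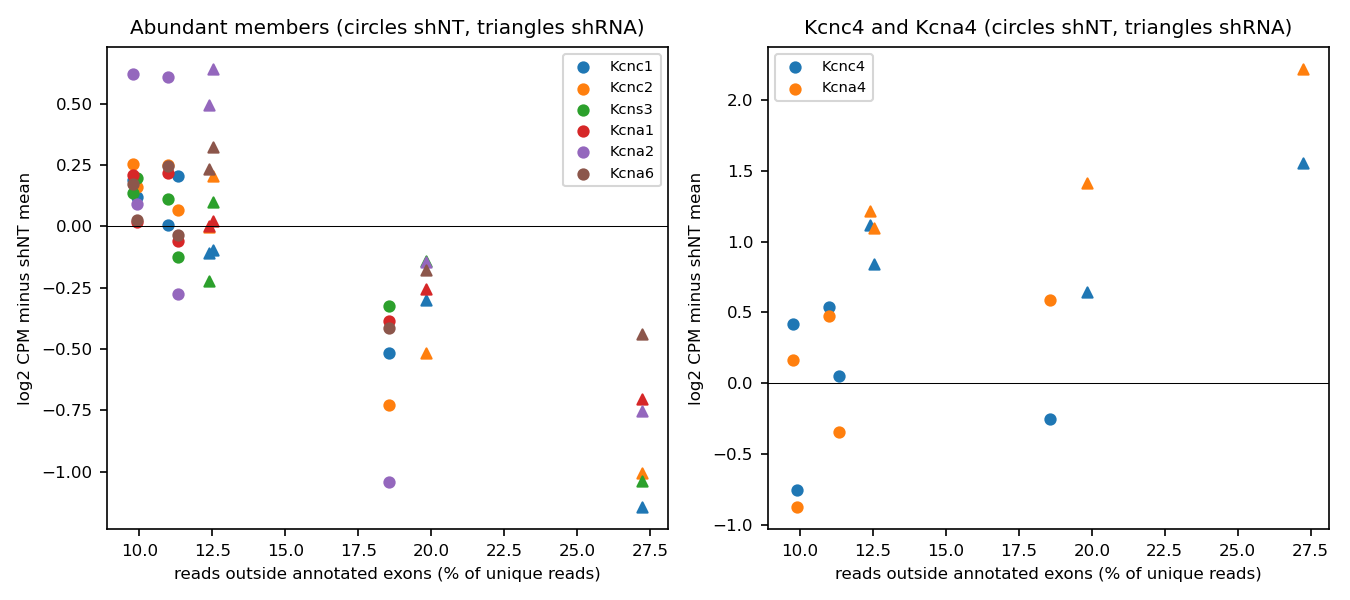
Log2 CPM of each member relative to its shNT mean (vertical axis) against the share of uniquely aligned reads outside annotated exons (horizontal axis, percent), for the 6 abundant members on the left and Kcnc4 and Kcna4 on the right, with circles for shNT (n = 5) and triangles for shRNA (n = 4). The abundant members are lowest in the samples at 18.6% and 27.2%, whereas Kcnc4 and Kcna4 are highest at 27.2%.

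Sums of marker genes of other cells also differed between samples. The 8 markers of CA3 and CA2 pyramidal neurons summed to 575 to 1429 CPM in the shNT samples and 1490 to 1873 CPM in the shRNA samples, and 1 of 8, Grik4, was called higher (7 of 8 with log2 fold changes above 0, and 6 higher at an unadjusted p under 0.05). DG granule cell markers summed to 25.1 to 60.0 CPM and 57.2 to 90.9 CPM, with 0 of 4 called (4 of 4 with values above 0, and 2 higher at that p). PV IN markers summed to 8844 to 14022 CPM and 4687 to 11312 CPM, with 0 of 10 called and 10 of 10 with log2 fold changes below 0 (3 lower at that p). The pyramidal neuron sums did not overlap between groups, and the sums for granule cells and PV INs overlapped. Among glia and other cells, astrocyte markers summed to 1036 to 1457 CPM and 1351 to 5199 CPM and oligodendrocyte markers to 764 to 2384 CPM and 1451 to 3029 CPM. None of these was called, but 8 of 8 and 7 of 7 had log2 fold changes above 0, and 6 of each list were higher at an unadjusted p under 0.05 (edgeR quasi-likelihood test), against 20.7% of all genes. Markers of oligodendrocyte precursors summed to 33.5 to 53.6 CPM and 44.6 to 54.9 CPM, with 1 of 4, Pdgfra, called higher (3 of 4 higher at that p). Microglia markers summed to 42.4 to 100.01 CPM and 75.6 to 86.9 CPM (0 of 7 called, 3 higher at that p), and endothelial markers to 63.8 to 191 CPM and 38.6 to 552 CPM (0 of 6 called, 0 at that p, 6 of 6 above 0). RNAs that stay in the nucleus, such as Malat1, summed to 1673 to 15051 CPM and 3645 to 19020 CPM (0 of 7 called, 3 higher at that p, 7 of 7 above 0), highest in shNT replicate 2 and shRNA replicates 1 and 4. The part of these cells in the levels of Kcna4 and Kcnc4 was not tested.

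Other genes of these channel complexes were taken as 19 partner genes, of which 17 were tested and Kcna7 and Kcna10 were not. Of the 17, 2 were called higher and 0 lower, against 1.74% and 0.0133% of all genes, and 3 had shRNA samples above all shNT samples, against 8.97% of all genes. Both called genes belong to the 9 genes of proteins that place Kv1 channels at axons and synapses. Lgi1, a secreted protein that binds ADAM22 and acts on Kv1 channels, had 37.7 ± 8.66 CPM (SD, n = 5) for shNT and 70.6 ± 5.96 CPM (SD, n = 4) for shRNA, which differ on the log2 scale by 0.91 (standard error 0.17, edgeR quasi-likelihood FDR = 0.0403). Dlg1, the scaffold SAP97, which binds Kv1 tails, had 21.3 ± 5.22 CPM (SD, n = 5) for shNT and 42.1 ± 8.37 CPM (SD, n = 4) for shRNA, which differ on the log2 scale by 0.98 (standard error 0.20, edgeR quasi-likelihood FDR = 0.0414). Neither was called when shNT replicate 3, 4 or 5 was left out, or shRNA replicate 1, 3 or 4. Those fits called 0 genes of the whole table, apart from 142 of 14515 higher without shRNA replicate 4. The scaffold Dlg2, PSD-93, had a value of 0.79 that did not pass (FDR = 0.0818), and Cntnap2, which holds Kv1 channels beside the nodes of axons, had -0.02 (FDR = 0.954, edgeR quasi-likelihood test). The remaining 5 of the 9 had log2 fold changes between -0.24 for Adam23 and 0.45 for Cntn2.

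The other Kv1 pore genes tested did not pass. Kcna3 and Kcna5 were low in level, at 13.0 ± 5.23 CPM and 0.806 ± 0.380 CPM (SD, n = 5) in the shNT samples, with log2 fold changes of 0.15 and 0.19. Of the cytoplasmic Kv1 beta subunits, 0 of 3 passed, with Kcnab1 at -0.24, Kcnab2 at -0.02 and Kcnab3 at -0.49. Kcnb2, a Kv2 gene of the channels that Kv9.3 modifies, had 0.60. The Kv9 genes Kcns1 and Kcns2 had 0.53 and 1.14. None of these 3 passed (FDR 0.0888 to 0.260, edgeR quasi-likelihood test), although Kcns2, at 4.91 ± 3.27 CPM (SD, n = 5) and 10.9 ± 1.24 CPM (SD, n = 4), had groups that did not overlap.

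Genes with the levels most like each member were found by Pearson r of log2 CPM over the 9 samples, among 9495 genes averaging at least 10 CPM. These samples share their libraries and differences in depth and in reads outside exons, so the values are a description. Kcnc1 was most like Fam174b and Emb (r = 0.994 for both), Kcnc2 most like Fitm2 (0.996) and Trim32 (0.994), and Kcns3 most like Ttll11 (0.989) and Cdr2l (0.988). Kcna1 was most like Gabrg3 (0.989), a GABA-A receptor subunit, and Sh3bgrl2 (0.988), Kcna2 most like Plcb4 and the AMPA receptor subunit Gria3 (0.993 for both), and Kcna6 most like Fam73a (0.992) and Plcxd2 (0.982). Kcnc4 was most like Supt6h (0.985) and Gpd2 (0.974), and Kcna4 most like Rassf2 (0.988) and Xrn1 (0.987). The genes named differed between all members, but so few names out of 9495 genes cannot show whether members varied together. Compared directly over the 9 samples, pairs of members other than Kcnc4 and Kcna4 had r between 0.669 and 0.966. Kcnc4 and Kcna4 had r = 0.885 with each other and between -0.787 and 0.137 with the remaining members.

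How the reads were scaled and adjusted changed which members were called. The log2 fold change of Kcna4 lay between 0.80 and 1.55 under the alternatives to the test, scaling, filter and terms of the fit, and its FDR between 0.00102 and 0.333. It was not called with scaling by library size only (FDR = 0.0708), by the upper quartile (FDR = 0.0718) or by DESeq2's size factors (FDR = 0.0507, edgeR quasi-likelihood test). A correction that subtracts from the shRNA samples the trend of log2 fold changes with exon length over all genes (loess) moved the median of all genes from 0.11 to -0.14. It put Kcnc1 at -0.91 (FDR = 0.0474) and Kcna1 at -0.75 (FDR = 0.0457), both called lower, and Kcna4 at 1.15 (FDR = 0.05004, not called, edgeR quasi-likelihood test). Relative to the median of all genes in the same fit, Kcnc1 was -0.77 with the correction and -0.49 without it, Kcna1 -0.61 and -0.34, and Kcna4 1.29 and 1.36. These 2 genes have the longest exons of the 8, with 9.13 and 8.97 kb, and with this correction 161 genes were called higher and 769 lower.

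**Figure D5:**
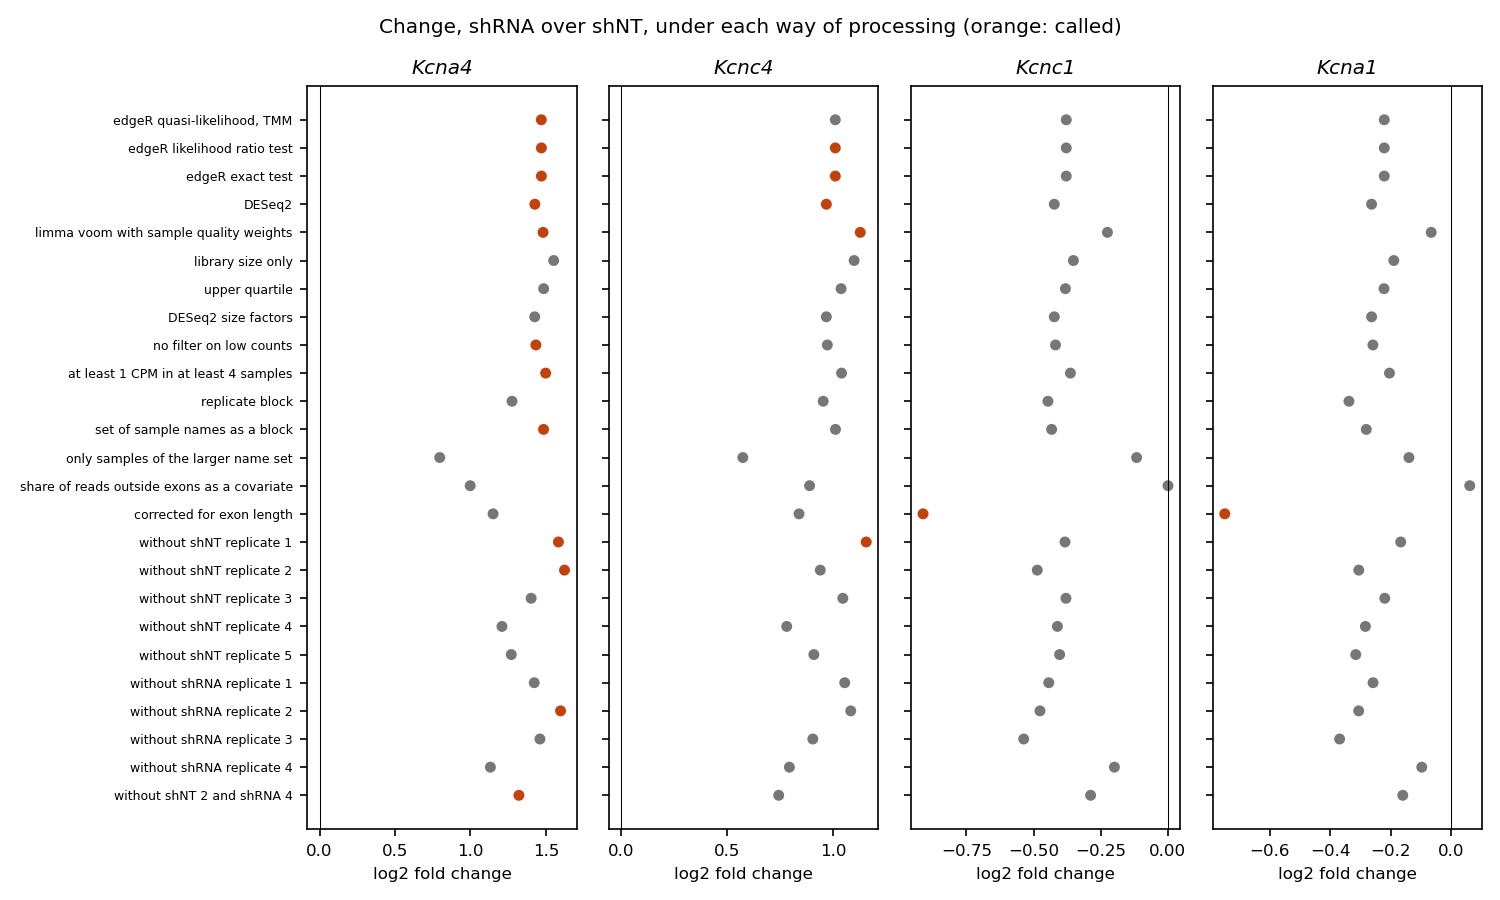
Log2 fold change (shRNA over shNT) of Kcna4, Kcnc4, Kcnc1 and Kcna1 under each way of processing the same counts, with orange dots where the gene was called. Kcna4 and Kcnc4 lie above 0 in every row, between 0.80 and 1.62 and between 0.57 and 1.16, and Kcnc1 and Kcna1 are called lower with the exon length correction alone.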

How the data were processed

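RNA bound to HA-tagged ribosomes was sequenced in 9 samples (5 shNT, 4 shRNA). The authors aligned 50-base reads to the mm9 transcriptome with STAR, counted unique reads per gene with HTSeq 0.6.0 without regard to strand and deposited raw counts per gene. Their annotation is not named in the sources used here. Names, positions and exon lengths came from the GENCODE annotation of mm9, which named 37205 of 37620 identifiers. Of 2 gene models named Kcnb2, the coding one was used.

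Genes that reached 1 CPM in 1 or more samples were tested (22551 removed). R 4.3.3 with edgeR 4.0.16 ran TMM scaling and the quasi-likelihood test on the group alone, with genes called at an FDR under 0.05 and at least 1.5-fold. The authors name edgeR, this fold and this FDR, but not the test. The biological coefficient of variation was 0.303. Counting error is smaller than this for every member, least so for Kcnc4 and Kcna4, which had as few as 72 and 80 reads. No 2 samples agreed within sampling noise (lowest chi-square per gene 22.1). Ratios and orders were tested by exact permutation over samples. Alternatives used limma 3.58.1 and DESeq2 1.42.0, other scaling, filters, blocks and covariates, and each sample left out in turn. Leaving out shNT replicate 2 with shRNA replicate 4 was chosen after seeing the data. Scripts were tested on simulated counts.

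The rule for named genes took the 8 members, the partner and marker genes that were called or end a range, Pvalb, Ablim3 and the 2 genes most like each member; partners outside it were named after their values were seen. Some partner genes are not reported here. Members and lists were chosen with earlier results of these data known. P-values set a difference against the spread between pools, not between mice.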

Additional observations from a re-analysis of the deposited data

Results flagged for a closer look

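Among 52 sets of values (a gene, a marker sum or a library measure in 1 group), 6 had 1 sample far from the others by Dixon's criterion at 95%, where chance gives about 1 in 20 (2.6 of 52). Kcnc2 was 371 CPM in shNT replicate 2 against 643 to 734 CPM in the other shNT samples. In the same sample the share of reads outside exons was 18.6% against 9.76% to 11.3%, the summed oligodendrocyte markers 2384 CPM against 764 to 1203 CPM, and the summed nuclear-retained RNAs 15051 CPM against 1673 to 3028 CPM. In shRNA replicate 4 the summed astrocyte markers were 5199 CPM against 1351 to 1588 CPM in the other shRNA samples, and the summed endothelial markers 552 CPM against 38.6 to 85.4 CPM. The part of these values in the levels of the channel genes was not tested. Without both samples Kcna4 was called (log2 fold change 1.32, FDR = 0.0282), but without shRNA replicate 4 alone it was not (1.13, FDR = 0.0918, edgeR quasi-likelihood test). These fits called 678 of 14270 and 142 of 14515 genes higher. Kcnc2 had -0.25 without both (FDR = 0.370, edgeR quasi-likelihood test).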

How the results depend on the processing

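The number of members called was 1 with the quasi-likelihood test and 2 (Kcnc4 and Kcna4) with edgeR's likelihood ratio and exact tests, DESeq2 and limma voom, where 4, 4, 4 and 7 of the 17 partner genes were called in place of 2. All of these were higher. Calls rose over the whole table too, where these 4 tests called 1688, 1659, 1532 and 2301 of 15069 genes higher, in place of 262. The number of members called was 0 with scaling by library size only, by the upper quartile or by DESeq2's size factors. Partner genes called were then 0, 0 and 2, and genes of the whole table called higher 0, 0 and 199. In the larger name set alone and with reads outside exons as a covariate both counts were 0. With the exon length correction 2 members and 1 partner gene were called, all lower. With each sample left out in turn, members called ran from 0 to 2 and partner genes from 0 to 4, and both were 0 when shNT replicate 3, 4 or 5 was left out, or shRNA replicate 1, 3 or 4. Over all fits with 1 sample left out, genes of the whole table called higher ran from 0 to 1007. They were 0 in the fits where both counts were 0, apart from 142 of 14515 without shRNA replicate 4. The counts kept to 1 and 2 with the other filters, no fold minimum and the name set as a term.

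Replicate numbers are shared by the groups, but same-numbered samples did not deviate together (correlations of -0.27, -0.64, 0.49 and -0.18), so the numbers do not pair the samples. With the replicate block both counts were 0, 34 genes of the whole table were called, all of them higher (1960 with an unadjusted p under 0.05), and Kcna4 had 1.28 (FDR = 0.333, edgeR quasi-likelihood test).

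Values near 0 changed sign. Kcna6 was 0.16 with limma voom, 0.032 with library size only, 0.016 with a minimum of 1 CPM in 4 samples, 0.081 in the larger name set, 0.29 with the covariate, 0.046 without both samples that stand apart and -0.15 to 0.11 with each sample left out. Kcna2 was -0.14 with the block, -0.11 with the name set as a term, -0.18 with the exon length correction and -0.17 to 0.25 with each sample left out. The covariate put Kcnc1 at 0.00070, Kcnc2 at 0.17, Kcns3 at 0.034 and Kcna1 at 0.061. Kcnc1 exceeded Kcnc2 by 0.23 with the longest transcript as length and by 0.034 in shNT samples alone, and Kcnc4 was -0.036 relative to Kcna4 in shRNA samples alone. The causes were not tested. Kcnc4 and Kcna4 have few reads in some samples (at least 72 and 80), which limits how finely their levels are known.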
